A study of Drosophila melanogaster with 12 samples.

Results

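The regions described here lie on U, a sequence of the dm3 build of the *Drosophila melanogaster* genome that joins scaffolds not placed on any chromosome. Peaks of the 4 S9.6 lists obtained without RNase H (RNH) were merged where they shared at least 1 bp, and of the 12155 merged regions 561 lay on U (Uextra, another unassembled sequence, was not included). The lists come from S2 cells, an embryonic cell line, in which the linker histone dH1 was knocked down by RNAi (dH1-depleted cells), with dsRNA (100 μg) supplied on days 1, 4 and 7 of a culture of 8 days, or that were WT and received none (untreated cells). No control dsRNA is named in the labels for the untreated cells. Both conditions had 2 biological replicates, and each replicate gave an RNH-treated S9.6 library, an RNH-untreated S9.6 library and an input. Genomic DNA was treated with RNase A, sheared by sonication (500–1000 bp), incubated with or without 6 U of RNH, and pulled down with S9.6 antibody (4 μg). The targeted transcript is not measured by these lists, so the depletion of dH1 was not checked here.

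R-loops form when RNA pairs with a strand of the DNA duplex and displaces the other strand. The S9.6 antibody recognizes DNA:RNA hybrids and RNH degrades their RNA strand, so S9.6 signal that is lost upon RNH treatment is attributed to R-loops. Linker histone binds the nucleosome and the DNA that enters and leaves it, and in *Drosophila* dH1 is needed for silencing of heterochromatin. Scaffolds that could not be placed are mostly rich in transposons and satellite repeats of the heterochromatin, and neighbours along U need not be neighbours in the chromosomes.

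The lists give each peak a position and the score of the MACS peak caller (10 × −log10 of the *p*-value, 50 at the lowest). The lists hold no reads, so depth is unknown, and the score is given here as a percentile within its own list (100 is the highest). A read that aligned at several sites was counted at each of them, so peaks on copies of an element share reads. Over all sequences, the RNH-untreated lists held 9368 (dH1-depleted replicate 1) and 5526 peaks (replicate 2), and 4016 and 3807 in untreated replicates 1 and 2. The RNH-untreated list of dH1-depleted replicate 1 stood apart. Its peaks had a median width of 228 bp, against 1195 bp in the other 3 lists together, and the main results that rest on it are also given without it.

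U carried more S9.6 peaks in dH1-depleted than in untreated cells, both as a number and as a share of each list. Without RNH treatment, 503 and 300 peaks were called on U in dH1-depleted replicates 1 and 2, against 149 and 150 in untreated cells. Both dH1-depleted libraries were above both untreated ones. The difference of the means was 1.38 on the log2 scale, larger than the spread between replicates (0.37), and an exact permutation test (2-sided) gave *p* = 0.33. This is the smallest *p* that 2 libraries against 2 can give, so no comparison of the conditions presented here could pass 0.05. With equal numbers of peaks of highest score from each list (3807) the difference was 0.78, and without dH1-depleted replicate 1 or 2 it was 1.00 or 1.75.

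As a share of each list, U held 5.37% (95% Wilson interval 4.93–5.84%) and 5.43% (4.86–6.06%) of the peaks of the dH1-depleted libraries, against 3.71% (3.17–4.34%) and 3.94% (3.37–4.61%) of those of the untreated ones. The groups did not overlap, and the replicates of a condition differed by less than the conditions did. The difference was 0.52 in log2 odds, with a spread of 0.046 between replicates (exact permutation test, *p* = 0.33). The intervals cover counting error only. Leaving out any of the 4 libraries gave differences between 0.48 and 0.57, but the value also depended on how far down the lists peaks were taken. It was 0.67 for scores of at least 100 and 0.82 when the lists were cut to equal length.

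In base pairs the picture depended on the library. Peaks covered 194182 bp of U in dH1-depleted replicate 1, whose peaks are narrow, and 493601 bp in replicate 2, against 231478 bp and 228794 bp in untreated cells. The groups overlapped (difference 0.43 on the log2 scale, exact permutation test, *p* = 1), and without dH1-depleted replicate 2 the difference was -0.25. Without dH1-depleted replicate 1 it was 1.10, and with the narrow peaks widened to the median of the other lists it was 1.23. As a share of all base pairs under peaks, U took 7.07% and 5.77% in dH1-depleted cells, against 3.84% and 4.08% in untreated cells, with no overlap of the groups (0.73 in log2 odds, exact permutation test, *p* = 0.33).

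The peaks on U were next set against those on the other heterochromatic sequences. There were 0.916 and 0.651 peaks on U for each peak on the Het sequences, the partly assembled pericentromeric heterochromatin, in dH1-depleted cells, against 1.06 and 1.27 in untreated cells. Relative to the Het sequences, U was thus lower in both dH1-depleted libraries (-0.59 on the log2 scale). Relative to Uextra it was higher, with 0.177 and 0.204 peaks on U for each peak on Uextra in dH1-depleted cells, against 0.135 and 0.134 in untreated cells (0.50 on the log2 scale). Neither pair of groups overlapped (exact permutation tests, *p* = 0.33 each). For the Het sequences, the groups overlapped with equal numbers of peaks, where the difference was -0.25 (exact permutation test, *p* = 1). Leaving out any 1 library kept the direction of this difference. It was then between -0.83 (without dH1-depleted replicate 1) and -0.34 (without dH1-depleted replicate 2).

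**Figure D1:**
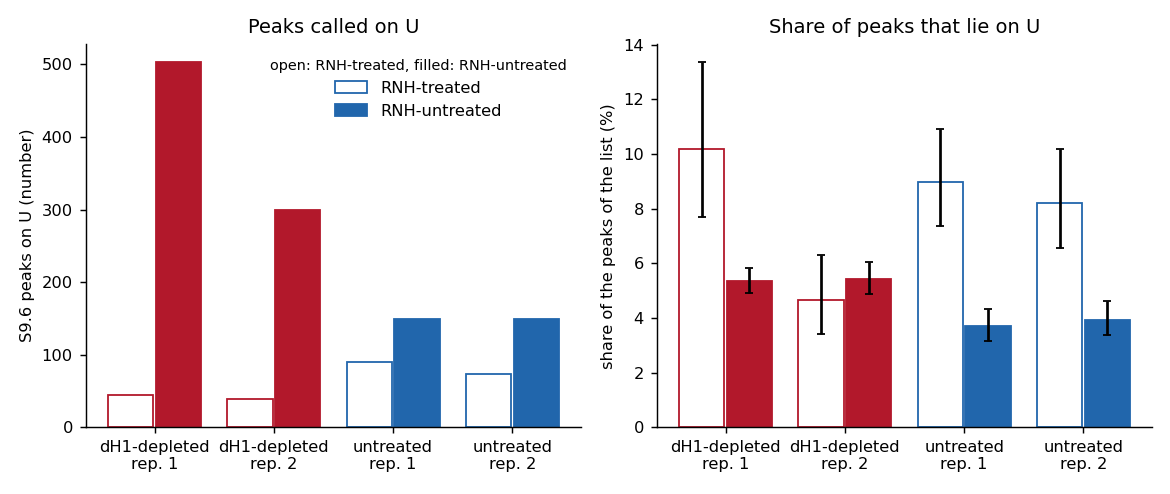
Number of S9.6 peaks on U (left) and their share of all peaks of the list in % (right), for the 8 lists. Open bars are RNH-treated and filled bars RNH-untreated libraries, red is dH1-depleted and blue is untreated cells, and error bars are 95% Wilson intervals. Without RNH treatment, 503 and 300 peaks stand against 149 and 150, and after RNH treatment 45 and 39 stand against 90 and 74.

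Upon RNH treatment the order of the conditions on U turned. With RNH, dH1-depleted replicates 1 and 2 held 45 and 39 peaks on U, and untreated replicates 1 and 2 held 90 and 74. Both dH1-depleted libraries were then below both untreated ones. The RNH-treated lists of dH1-depleted cells were also shorter over all sequences, with 442 and 839 peaks against 1001 and 903 in untreated cells. The order turned on Uextra as well. Without RNH, Uextra held 2837 and 1470 peaks in dH1-depleted cells against 1102 and 1120 in untreated cells. With RNH it held 319 and 406 against 789 and 736. As a share of the RNH-treated list, given below, the conditions overlapped on U. The RNH-treated library held 11.2 and 7.69 times fewer peaks on U than the RNH-untreated one in dH1-depleted cells, and 1.66 and 2.03 times fewer in untreated cells.

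All 4 replicates held fewer peaks on U after RNH treatment than without it. Over them the log2 ratio (peaks on U with RNH over peaks on U without) was -2.04 ± 1.37 (SD, *n* = 4). A 2-sided exact sign-flip test over these pairs gave *p* = 0.13, the lowest value possible with 4. Without dH1-depleted replicate 1 the mean was -1.56. It was -3.21 ± 0.38 in dH1-depleted cells and -0.87 ± 0.21 in untreated cells (SD, *n* = 2 each). The difference between the conditions was -2.34, or -2.07 without dH1-depleted replicate 1 (exact permutation tests, *p* = 0.33 each). The same ratio averaged -4.90 in dH1-depleted and -2.74 in untreated cells on the Het sequences, and -2.50 in dH1-depleted and -0.54 in untreated cells on Uextra. On the chromosome arms the conditions did not separate, with -4.79 ± 2.34 in dH1-depleted cells and -4.85 ± 0.20 in untreated cells.

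RNH-treated lists were not poorer in U peaks as a share. Of the RNH-treated peaks, U took 10.2% and 4.65% in the dH1-depleted replicates 1 and 2, and 8.99% and 8.19% in untreated replicates 1 and 2. Set against the RNH-untreated share of the same replicate, it was higher in 3 of 4 and lower in dH1-depleted replicate 2. The mean change was 0.81 in log2 odds, with an SD of 0.71 over the 4 pairs (exact sign-flip test, *p* = 0.25).

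At the regions called in a library, a peak of the RNH-treated library of the same replicate was less common in dH1-depleted cells. It was found at 46 of 412 regions (11.2%) of dH1-depleted replicate 1 and 19 of 298 (6.38%) of replicate 2, and at 37 of 147 (25.2%) and 29 of 147 (19.7%) of untreated replicates 1 and 2. The groups did not overlap, with a difference of -13.7 percentage points (exact permutation test, *p* = 0.33). This was not particular to U, since the difference was -32.8 points on Uextra and -5.14 points on the Het sequences. On the arms it was 0.46 points. When equal numbers of peaks of highest score were taken from each list, however, the difference on U was 0.64 points, with overlapping groups. The direction of this difference thus depended on how many peaks of each list were used.

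The same comparison was then made at the 90 regions called in all 4 RNH-untreated lists, which are the same regions for each library (a choice made after the values were seen). A peak was still called after RNH treatment at 19 and 10 of them in dH1-depleted cells, against 31 and 24 in untreated cells. The difference was -14.4 points (exact permutation test, *p* = 0.33). On Uextra it was -29.5 points, on the Het sequences -6.98 points and on the arms -1.28 points. Fixing the regions did not equalize the RNH-treated lists, which held 442 and 839 peaks in dH1-depleted cells and 1001 and 903 in untreated cells. These differences were not recomputed with equal numbers of peaks.

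**Figure D2:**
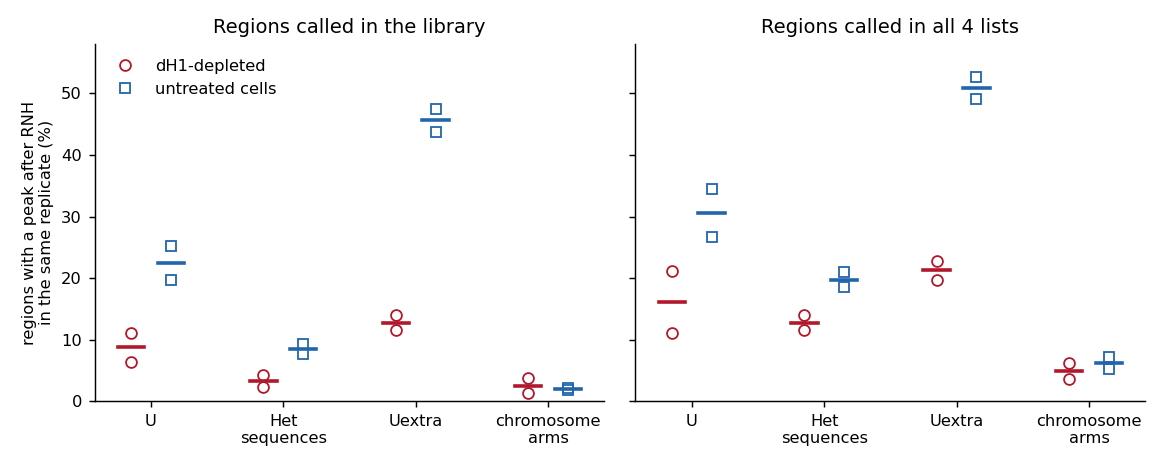
Share of regions (%) where a peak was also called in the RNH-treated library of the same replicate, on U, the Het sequences, Uextra and the chromosome arms. Points are replicates and bars are means of 2, for regions called in that library (left panel) and for regions called in all 4 RNH-untreated lists (right panel). On U, 11.2% and 6.38% in dH1-depleted cells stand against 25.2% and 19.7% in untreated cells in the left panel.

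Most regions on U rested on a single list. Of the 561, 349 (62.2%) were called in 1 RNH-untreated list, 71 in 2 lists, 51 in 3 lists and 90 in all 4. Over the whole series 61.6% of regions were called in 1 list only, so U did not stand apart in this. dH1-depleted replicate 1 alone called 232 regions (41.4%, in front of 41.7% in the whole series), and dH1-depleted replicate 2 alone called 108 (19.3%, in front of 15.1%). Untreated replicate 1 alone called 6 (1.07%, in front of 2.78%) and untreated replicate 2 alone called 3 (0.535%, in front of 2.02%).

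Most regions of untreated cells on U were also called in dH1-depleted cells. Regions called in either dH1-depleted list numbered 551, and regions called in either untreated list numbered 180. The 170 regions shared between the conditions were 30.9% of the dH1-depleted set and 94.4% of the untreated set. The dH1-depleted set was 551 regions and the untreated set 180, so the shares have different denominators. Over the whole series these shares were 34.2% and 81.5%, and on Uextra 39.6% and 98.6%. Within a condition, 28.6% of the regions on U were called in both replicates in dH1-depleted cells and 63.4% in untreated cells. These shares were 16.0% and 54.5% on the Het sequences, 31.1% and 80.1% on Uextra and 16.4% and 56.8% on the arms. The dH1-depleted shares rest on comparing the longer list of narrow peaks of replicate 1 with the wider peaks of replicate 2.

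Called in both dH1-depleted lists and in neither untreated list were 41 regions on U (7.31%, Wilson interval 5.43–9.76%). Over the whole series 4.25% of regions followed this pattern, with 6.95% on the Het sequences, 4.70% on Uextra and 3.56% on the arms. The reverse pattern, both untreated lists and neither dH1-depleted list, was found for 1 region on U (0.178%, 0.031–1.00%), in front of 2.41% in the whole series and 3.63% on the arms. With equal numbers of peaks these counts were 12 and 5, so they moved by more than 1.5 times. When a dH1-depleted replicate was left out, the rule used only the 1 dH1-depleted list that remained, which is a weaker demand. The counts were then 149 and 10 (without replicate 1) and 285 and 16 (without replicate 2), and they are not directly comparable with 41 and 1.

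Of the 41 regions, 35 had no peak in any RNH-treated list. The other 6 (14.6%) had one, in front of 21.6% of all regions on U and 11.3% over the whole series. Lacking one was thus the common case in general. Among the 35, U:9667339-9669220 (1882 bp) ranked highest in its lower list, at percentile 92.1 in both dH1-depleted lists. U:5775833-5776884 (1052 bp) followed, at percentiles 68.8 and 72.2 in dH1-depleted replicates 1 and 2. U:9805746-9806489 was at 77.1 and 68.7, U:3233937-3236452 at 79.2 and 65.0, and U:946688-948134 at 77.3 and 62.2. Only the first of these 5 was above percentile 90. As a group, the 41 regions had median percentiles of 47.3 and 44.7 in the dH1-depleted lists, near the middle of each list. The only region with the reverse pattern, U:7061123-7061882 (760 bp), was at percentiles 5.63 and 30.0 in untreated replicates 1 and 2, with no peak in any RNH-treated list.

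Regions called in all 4 RNH-untreated lists ranked high. There were 90 of them (16.0% of those on U, Wilson interval 13.2–19.3%, in front of 12.9% in the whole series), and their median percentile was 86.4 in dH1-depleted replicate 1 and 77.8 in replicate 2, and 74.6 and 71.0 in untreated replicates 1 and 2. Being called in every list favours strong peaks, so this order is a description. U:9934130-9935456 (1327 bp) had the highest percentile in its lowest list, with 99.9 and 98.7 in dH1-depleted cells and 98.5 and 97.8 in untreated cells. It carried the highest score on U in dH1-depleted replicate 1 (3081.85), and a peak remained there in 3 RNH-treated lists, all but dH1-depleted replicate 1.

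U:1041265-1043178 held percentiles of 99.7 and 97.3 in dH1-depleted cells and 97.7 and 98.4 in untreated cells. It carried the highest score of untreated replicate 2 on U (1179). U:5582620-5584356, with 99.5 and 96.4 in dH1-depleted cells and 98.7 and 97.6 in untreated cells, carried that of untreated replicate 1 (1134.43). Both kept a peak in 3 RNH-treated lists. U:8366514-8367508, at 96.6 or above in all 4 lists, kept a peak in both untreated RNH-treated lists and in neither dH1-depleted one.

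U:1880633-1887202 differed from these 4 regions. It spanned 6570 bp and was at percentiles of 96.4 and 98.4 in dH1-depleted cells and of 96.0 and 95.6 in untreated cells, and no peak was called there in any of the 4 RNH-treated lists. It was among the 51 of the 90 regions with no RNH-treated peak. The highest score of dH1-depleted replicate 2 on U (1640.37) was on another wide region, U:1293044-1298346 (5303 bp).

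**Figure D3:**
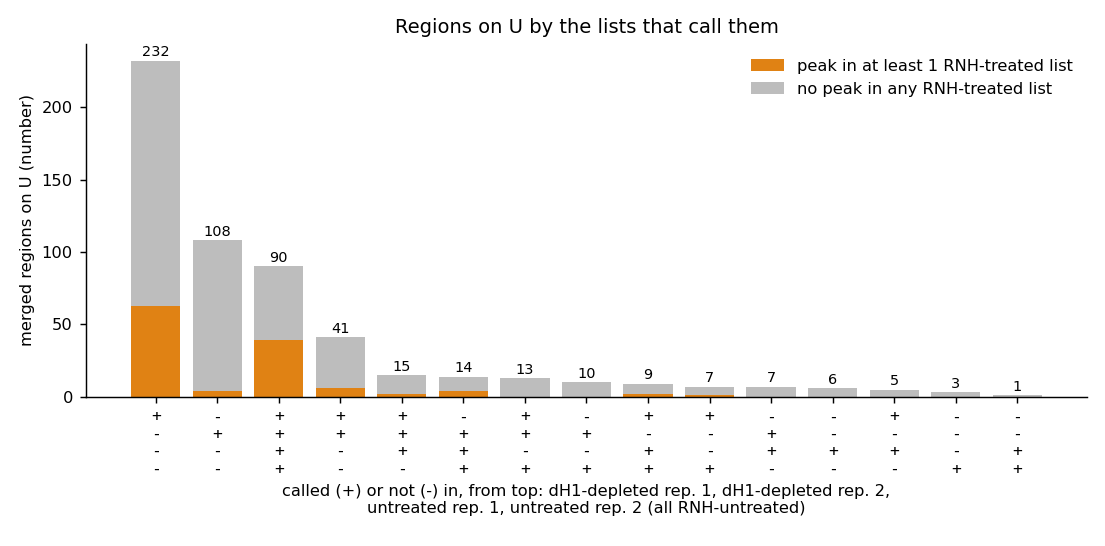
Number of merged regions on U for each combination of RNH-untreated lists that call them (+ called, - not called). Orange marks regions with a peak in at least 1 RNH-treated list and grey the others. The largest groups are 232 regions of dH1-depleted replicate 1 only, 108 of dH1-depleted replicate 2 only and 90 of all 4 lists.

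Regions with a peak after RNH treatment were more common on U than over the whole series. A peak of at least 1 RNH-treated list overlapped 121 of the 561 regions (21.6%, Wilson interval 18.4–25.2%), in front of 11.3% of all regions. The share was 29.4% on Uextra, 5.71% on the Het sequences and 3.90% on the arms. The RNH-treated lists of dH1-depleted cells accounted for 67 of the 121 regions (11.9% of those on U, in front of 6.88% over the whole series) and those of untreated cells for 104 (18.5%, in front of 8.93%). A peak in both untreated RNH-treated lists and in neither dH1-depleted one was found at 34 regions (6.06%, in front of 2.76% over the whole series and 8.97% on Uextra). The reverse was found at 0 of 561 (Wilson interval 0–0.680%), in front of 0.0411% over the whole series. The first pattern was thus also the more common one over the whole series. An RNH-treated peak can span several regions, so these counts are of regions and not of peaks.

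Many of the RNH-treated peaks of untreated cells lay where the RNH-untreated library of the same cells had no peak. Of 90 and 74 RNH-treated peaks on U in untreated replicates 1 and 2, 41.1% and 39.2% overlapped an RNH-untreated peak of their own replicate. In dH1-depleted replicates 1 and 2 this held for 80.0% and 48.7% of 45 and 39 peaks. On the other sequences the shares were 84.1% and 41.6% in dH1-depleted cells, and 64.4% and 65.4% in untreated cells.

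The narrow-peak list, dH1-depleted replicate 1 without RNH, was the one that covered these sites. Its peaks overlapped 86.7% and 85.1% of the RNH-treated peaks of untreated replicates 1 and 2 on U, while those of dH1-depleted replicate 2 overlapped 46.7% and 44.6%. This was not particular to U, since on the other sequences the shares were 87.0% and 89.7% for the narrow-peak list and 56.8% and 56.2% for dH1-depleted replicate 2. Among the 232 regions that only this list called, 63 (27.2%) held an RNH-treated peak, 57 of them from untreated cells and 46 in both untreated lists. Of the 108 regions that only dH1-depleted replicate 2 called, 4 (3.70%) held one. Over all regions on U the share was 21.6%. For these call patterns the share was not counted on the other sequences, so whether it is particular to U was not tested. With the RNH-treated and the RNH-untreated list of dH1-depleted replicate 1 both left out, 49 regions on U held an RNH-treated peak, against 121 with all lists. Regions called in that replicate only then drop out too, so the fall is not due to the narrow-peak list alone. What sets this library apart was not tested.

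The highest scores of this kind were at U:2605809-2606272 (464 bp). It was called at percentile 99.4 without RNH in dH1-depleted replicate 1 (score 1895.03) and in no other RNH-untreated list. All 4 RNH-treated lists had their highest score on U there, with 528.88 in dH1-depleted replicate 1 and 932.11 in replicate 2, and 1771.49 and 1923.13 in untreated replicates 1 and 2. These peaks were at percentile 97.9 or above of their lists. The RNH-treated peaks were 1148 bp to 1289 bp wide and contained the whole region.

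U:9783084-9783533 (450 bp) had the same calls, at percentile 95.5 in dH1-depleted replicate 1 without RNH and between 94.8 and 98.4 in the 4 RNH-treated lists. In all, 19 regions (3.39%, in front of 1.66% over the whole series) held a peak in all 4 RNH-treated lists, of which 9 were called without RNH in dH1-depleted replicate 1 only and 6 in all 4 lists. U:9691611-9694144 and U:9456650-9458594 were of the second kind, at percentiles of 91.3 or above in each RNH-untreated list. U:9375842-9377081 was called without RNH only in the dH1-depleted lists (77.7 and 55.7), although all 4 RNH-treated lists had a peak there, at 95.8 and 75.6 in dH1-depleted cells and above 90 in both untreated lists.

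The widths of the regions followed the lists that call them. They ranged between 80 bp and 13221 bp, with a median of 995 bp, and covered 614290 bp in all. Regions narrower than 500 bp numbered 222, of which 221 were called in dH1-depleted replicate 1 only. The 232 regions of that list alone had a median width of 204.5 bp, while the 108 of dH1-depleted replicate 2 alone had 1225 bp, the 41 called in both dH1-depleted lists only 1447 bp and the 90 called in all 4 lists 1474.5 bp. At the 90 regions, peaks of dH1-depleted replicate 1 covered a median of 518 bp in front of 1347.5 bp in dH1-depleted replicate 2, and 1247 bp and 1279.5 bp in untreated cells. In dH1-depleted replicate 1, 35 of the 90 regions were split into more than 1 peak, and in the other lists 2, 2 and 3 were.

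**Figure D4:**
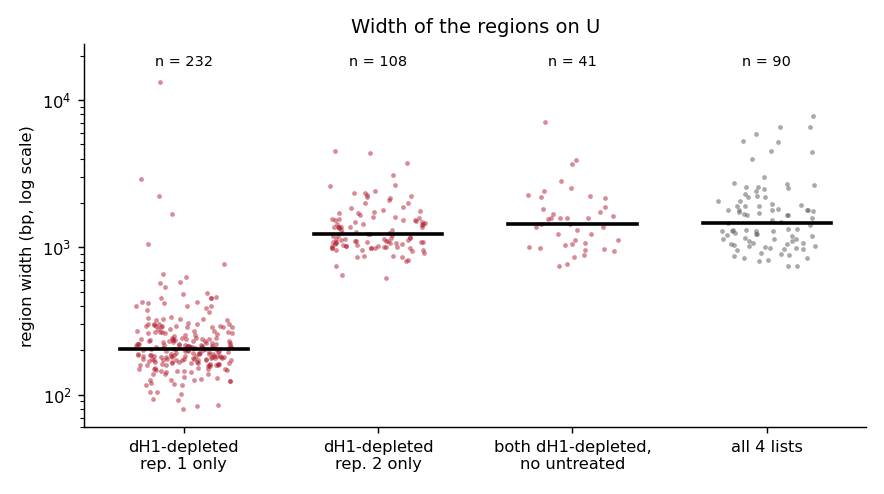
Width of the regions on U in bp (log scale) for the 4 largest groups of calls without RNH treatment. Points are regions (spread sideways at random), black bars are medians and n is the number of regions. The median is 204.5 bp for dH1-depleted replicate 1 only and 1225 bp, 1447 bp and 1474.5 bp for the others.

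Within a list, peaks on U were about as wide as the other peaks. Their median width was 249 bp in dH1-depleted replicate 1 and 1301.5 bp in replicate 2, and 1185 bp and 1149.5 bp in untreated replicates 1 and 2, against 227 bp, 1230 bp, 1187 bp and 1162 bp on the other sequences of these lists. The mean difference was 0.049 ± 0.071 on the log2 scale (SD, *n* = 4 lists; exact sign-flip test, 2-sided, *p* = 0.5). By score, peaks on U ranked above the other peaks in each RNH-untreated list. The median percentile was 64.4 and 58.9 on U, against 49.3 and 49.6 elsewhere, in dH1-depleted replicates 1 and 2, and 57.3 and 55.8, against 49.7 and 49.8, in untreated replicates 1 and 2. The difference was 9.52 ± 3.95 percentile points (SD, *n* = 4 lists; exact sign-flip test, *p* = 0.13), and 5.27 with a score of 100 and above or 4.63 with equal numbers of peaks.

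Few regions were wide. U:5290431-5303651, the widest (13221 bp), was a single peak of dH1-depleted replicate 1 without RNH, at percentile 99.6, in a list whose median width was 228 bp. The only other list with a peak there was that of untreated replicate 1 after RNH treatment, and its peak spanned the whole region. The next were U:976230-986034 (9805 bp), U:275159-282892 (7734 bp), U:239419-247123 (7705 bp) and U:1541802-1548857 (7056 bp). All 4 were a single peak in dH1-depleted replicate 2 and were split into 4 to 6 peaks in dH1-depleted replicate 1. U:275159-282892 was called in all 4 RNH-untreated lists, and U:1541802-1548857 in both dH1-depleted lists only.

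Regions on U were unevenly spaced. They lay between positions 3070 and 10045727, with gaps of 7722 bp in the median (quartiles 2159 bp and 19732 bp) and of up to 226638 bp. When regions less than 5 kb apart were joined, 344 of the 561 (61.3%) fell into 122 clusters of at least 2 regions, and 217 stood alone. With a gap of 2 kb there were 99 clusters with 237 regions, and with 10 kb 122 clusters with 441 regions. In 36 clusters all regions had the same calls, and in 19 of these all were called in dH1-depleted replicate 1 only.

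The cluster with most regions, U:2190866-2212325, held 10. Its first 7 were called in dH1-depleted replicate 1 only and were 149 bp to 241 bp wide, at percentiles of 16.9 to 66.9. They were followed by a region of dH1-depleted replicate 2 only, a region of 5840 bp called in all 4 lists (percentile 92.8 in dH1-depleted replicate 2) and a region called in both dH1-depleted lists. No RNH-treated list had a peak in this cluster. U:1235220-1250963 held 9 regions with no RNH-treated peak, of which 5 were called in dH1-depleted replicate 1 only and none in all 4 lists.

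U:1340828-1365855 held 7 regions, and 3 of them were called in an untreated list. U:260749-282892 held 6, with 2 called in all 4 lists, one of which was the region of 7734 bp described above. U:2062852-2079392 also held 6, none of them called in untreated cells. Here 5 of the 6 were called in dH1-depleted replicate 2 only, and they were up to 4340 bp wide.

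The makeup of the regions changed along U. Windows of 1 Mb held 83, 81, 51, 37, 15, 34, 55, 50, 49 and 99 regions in order, and the remainder past 10 Mb, which is shorter, held 7. The first windows were rich in regions of few lists. In the first, 3 of 83 regions were called in all 4 lists and 6 held an RNH-treated peak, while in the last full window 32 of 99 were called in all 4 lists and 39 held an RNH-treated peak. Regions beyond 9 Mb were 106 (18.9% of those on U), and 46 of them (43.4%) held an RNH-treated peak, in front of 16.5% of the regions before 9 Mb. They comprised 32 of the 90 regions called in all 4 lists (35.6%) and 4 of the 41 called in the dH1-depleted lists only. The window from 7 to 8 Mb held most regions called in the dH1-depleted lists only, with 9 of 50. All 7 regions past 10 Mb held an RNH-treated peak, and 6 of them were called in dH1-depleted replicate 1 only. Neighbouring regions share scaffolds and may share repeats, so windows are not independent and were given no test.

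**Figure D5:**
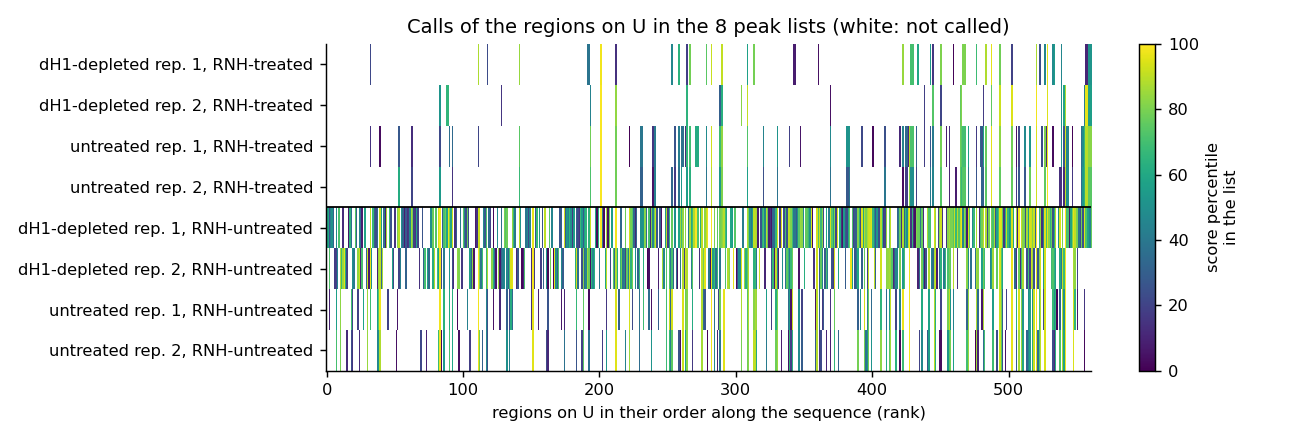
Calls of the 561 regions on U in the 8 lists, with regions in their order along the sequence (rank, not distance) and lists as rows. Colour is the score percentile of the highest peak of the list in that region, and white means not called. Calls in the 4 RNH-treated rows are sparse on the left and denser towards the right end, where 46 of the 106 regions beyond 9 Mb hold one. The course between is not steady, with 8 of the 15 regions from 4 to 5 Mb holding one.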

How the data were processed

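Condition and replicate of each DRIP-seq library were taken from the labels, and each peak list was assigned to the library whose label it carries. The authors aligned reads to dm3 with Bowtie 0.12.5, kept all alignment sites of a read, removed duplicates and called peaks with MACS 1.4 per S9.6 library, with the input of that replicate as background and no pooling of replicates. They deposited the position of each peak and its score, which is not normalized between libraries. Coverage and DiffBind analyses need the reads and were not repeated. The processing notes name 2 MACS versions (1.4 and 1.4.2).

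Merging joined peaks of the RNH-untreated lists that shared at least 1 bp. A list called a region when it had an overlapping peak. Numbers, covered base pairs and shares per library were compared by exact permutation tests (2 libraries against 2) on log2 values or log2 odds, and RNH-treated and RNH-untreated libraries in pairs, or U and the other sequences within a list, by exact sign-flip tests, all 2-sided. The spread between replicates is the pooled SD of the conditions, or the SD over pairs. Calls of regions were counted with 95% Wilson intervals and no test. Position clusters joined regions less than 5 kb apart. Regions named in the text were the 5 clusters with most regions, the 5 of highest percentile in their lowest list among those called in all 4 lists, the same for regions of a single condition (both lists of it, without RNH-treated peak in the case of dH1-depleted cells), the 5 widest, the 5 with peaks in most RNH-treated lists and the peak of highest score on U in each list. The regions in question, the groups of sequences and these rules were chosen with earlier results of these data known.

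Alternatives were a score of 100 and above, lists shortened by score to equal numbers of peaks (3807 without RNH, 442 with RNH), narrow peaks of dH1-depleted replicate 1 widened by 484 bp on each side, an overlap of 50% of the shorter interval, leaving out regions with an RNH-treated peak in the same condition, leaving out each replicate, the replicate number as a block, and cluster gaps of 2 and 10 kb. Leaving out a replicate removed its RNH-treated and its RNH-untreated list, and regions were merged again from the lists left. Python 3.11.15, NumPy 2.4.6, SciPy 1.17.1 and matplotlib 3.10.9 were used. On simulated lists, all 120 regions of the dH1-depleted pattern, 40 of the untreated pattern and 200 called in all 4 lists were recovered. The simulated regions lay well apart and the peaks of each overlapped, so this checks the counting only. Narrow, split or closely spaced peaks were not simulated. No genome of the dm3 build was at hand and the gene table is of another build, so no sequence, repeat or gene was assigned to a position.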

Additional observations from a re-analysis of the deposited data

Results flagged for a closer look

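In the RNH-treated lists, peaks on U ranked above the other peaks in dH1-depleted cells and below them in untreated cells. The median score percentile on U minus that on the other sequences was 5.66 in dH1-depleted replicate 1 and 6.26 in replicate 2, and -8.24 and -9.52 in untreated replicates 1 and 2. The conditions differed by 14.8 percentile points. The measure was picked out because the conditions lay on opposite sides of 0. A test of this difference would therefore carry no weight, and none is given.

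In the RNH-untreated lists, the median width of peaks on U was slightly above that of the other peaks in dH1-depleted cells and slightly below it in untreated cells. The log2 ratio of the median widths was 0.13 in dH1-depleted replicate 1 and 0.082 in replicate 2, and -0.0024 and -0.016 in untreated replicates 1 and 2. The difference of 0.12 was picked out in the same way, and no test of it is given.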

How the results depend on the processing

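For the 12 results with a test, 92 of 94 values recomputed under alternatives kept their direction and 2 changed sign, and 12 of the 92 differed from the reported value by over 1.5 times. For the 6 results without a test (counts of regions or clusters and a difference of shares), 17 of 50 values moved by over 1.5 times or, for the difference, by more than the spread between conditions. The covered base pairs on U, dH1-depleted over untreated cells, changed sign without dH1-depleted replicate 2 (leave-one-out range -0.25 to 1.10 on the log2 scale, and 0.074 with equal numbers of peaks), and the difference in regions with a peak after RNH treatment changed sign with equal numbers of peaks (0.64 percentage points). With equal numbers of peaks, the difference in peaks on U was 0.78 on the log2 scale, that in their share 0.82 in log2 odds, that relative to the Het sequences -0.25, and the change of the share upon RNH treatment 0.50. Regions called only in both dH1-depleted lists were 23 with a score of 100 and above, 12 with equal numbers of peaks and 54 to 285 on leaving out a replicate. Regions called only in both untreated lists were 5 with equal numbers and 4 to 16 on leaving out a replicate. Leaving out a replicate also weakens both of these rules, since only 1 list of its condition then remains. Regions called in all 4 lists were 49 with a score of 100 and above. Regions with an RNH-treated peak were 63 with a score of 100 and above, 61 with equal numbers and 49 to 119 on leaving out a replicate, and clusters were 65, 79 and 68 to 123 under these alternatives. The share of regions called in both replicates on U minus that on the Het sequences was 10.8 percentage points and reached 15.6 with a score of 100 and above. Apart from what follows from the construction of these alternatives (fewer peaks, fewer libraries), the cause was not tested. Libraries with the same replicate number carry the same tag in their labels in both conditions, and the labels do not say what it means. The tag was not taken to pair them. The correlation of deviations (0.0064, 2 pairs) cannot show whether they are paired, since it rests on 2 replicates per condition. With the replicate block the difference in peaks on U was again 1.38 on the log2 scale and that of the share 0.52 in log2 odds (exact sign-flip tests, *p* = 0.5, the smallest that 2 pairs allow), and the block changed no other direction. The unknown depth of the libraries limits all counts of peaks.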
